A study of Homo sapiens with 4 samples.

Results

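The regions described here were the HNRNPC binding sites that lay inside introns and in an Alu element running opposite to the host gene. They were chosen from the deposited HNRNPC peak list, with each position counted once. A peak was a member when its centre lay in an intron of GENCODE 44 on its own strand, outside every annotated exon, and when the peak with 100 nt added on each side matched an Alu consensus on the strand opposite to the gene (BLAST, E-value at most 1e-05). By this rule 3078 of 9107 HNRNPC peaks were members, which was 33.8% of all HNRNPC peaks (95% Wilson interval 32.8 to 34.8) and 39.6% of the 7782 intron peaks (38.5 to 40.6). Of the other intron peaks, 139 matched only an Alu in the same direction as the gene (sense Alu) and 4565 matched no Alu. The members themselves lay in 1823 genes, with 2960 of them (96.2%) in protein-coding genes and 109 in long non-coding RNA genes.

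The cells were MDA-MB-231, an established human breast cancer line, and no treatment, transgene or deletion was labelled. RNA and protein were cross-linked with 254 nm ultraviolet light at 400 mJ per square centimetre, and endogenous HNRNPC was pulled down with an antibody in 2 samples. In 2 further samples PABPC4, a poly(A)-binding protein, was pulled down for PAPERCLIP, which reads out RNA next to poly(A). The authors pooled the samples of each protein into 1 peak list, which leaves no measure of how replicates varied, every interval covers counting error only, and peaks are not replicates of a condition. Library read totals were not analysed here, so the sequencing depth is unknown. No expression measurement was used here, so a gene with many peaks and a gene with abundant pre-mRNA cannot be told apart. Nothing in the lists served as a control without antibody.

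HNRNPC is a nuclear protein that packages nascent transcripts and binds stretches of uridine. Alu elements are short retrotransposons made of a left and a right arm joined by an A-rich linker and ending in an A-rich tail. When an Alu lies inverted within a gene, both A-rich stretches are transcribed as U-rich stretches, which resemble the U-rich tract ahead of a 3′ splice site. HNRNPC is known to compete with the splicing factor U2AF2 at such tracts and so to keep pieces of Alu from being joined into mRNA as exons.

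Places on the element are given on a consensus that was built from the genome and had 282 nt without its tail. Positions on it are counted from 1 at the tail side, which is transcribed first when the element is inverted, so the right arm is at positions 1 to 146 and the left arm at positions 147 to 282. The middle U-rich stretch, the transcribed form of the linker, is at positions 150 to 162. The longest stretch that the arms share is at positions 113 to 128 of the right arm and 248 to 263 of the left arm.

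The stretches of 30 nt below come from the tallest members, each cut from around the RNA 5′ end of its peak so as to hold the longest U run there. They are given 5′ to 3′ on the RNA strand in hg38, and capitals mark runs of 5 or more U. The first pair are the tallest members of all, and both had such a run.
EZH2, chr7:148879679-148879708, minus strand: auuuauuauuuaUUUUUUUgagaugcagug
PRKCA, chr17:66374710-66374739, plus strand: aguugcauucUUUUUUUUUUUUUUUUUUUU

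The PRKCA stretch ended in 20 U at the tail side of its Alu, and the longest run in the EZH2 stretch was 7 U. The next pair come from tall members that had no run of 5 U near the 5′ end, and in neither was the peak centre placed in an arm of the Alu.
DPH7, chr9:137573064-137573093, minus strand: caccuugccccgcccacuuauucuuuagag
SKI, chr1:2265127-2265156, plus strand: uaagauugucucuuugucacugcuuugagc

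The members formed a pair of groups along the element, one per arm. The centre of 1378 members was placed in the right arm and that of 1296 in the left arm, while 404 members (13.1%) had a centre beyond the ends of the element or could not be placed. Of the 2674 members placed in an arm, 51.5% were in the right arm (49.6 to 53.4), an interval that includes equal shares. The number of members covering a position was highest at position 72 of the right arm, with 1291 members, and at position 233 of the left arm, with 1318 members. Between these it fell to 199 members at position 149, next to the start of the middle U-rich stretch. The members thus covered the body of each arm far more often than the U-rich stretch that separates the arms.

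The 5′ ends of the peaks mostly lay in the U-rich stretches or within 60 nt after them. In the left arm the median 5′ end was at position 178 (quartiles 164 and 194), and 1038 of 1265 left-arm members with a placed 5′ end (82.1%, 79.8 to 84.1) began within the middle U-rich stretch or in the 40 nt after it. In the right arm the median 5′ end was at position 26 (quartiles 1 and 49), and 88.5% of 1255 members (86.6 to 90.2) began between 20 nt before the tail edge and position 60. This range reached further past the U-rich stretch than the range used for the left arm, so the shares of the arms are not comparable. The right-arm 5′ ends were not even over that range, since 228 of them (18.2%) fell in the 6 positions from 48 to 53. The 3′ ends lay near the stretch that both arms share. They fell in that stretch or within 10 nt of it for 66.0% of right-arm members (63.4 to 68.5, n = 1341) and for 59.9% of left-arm members (57.0 to 62.7, n = 1145). Both arms thus gave peaks of like extent, with a median width of 96 nt in the right arm and 98 nt in the left arm.

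**Figure D1:**
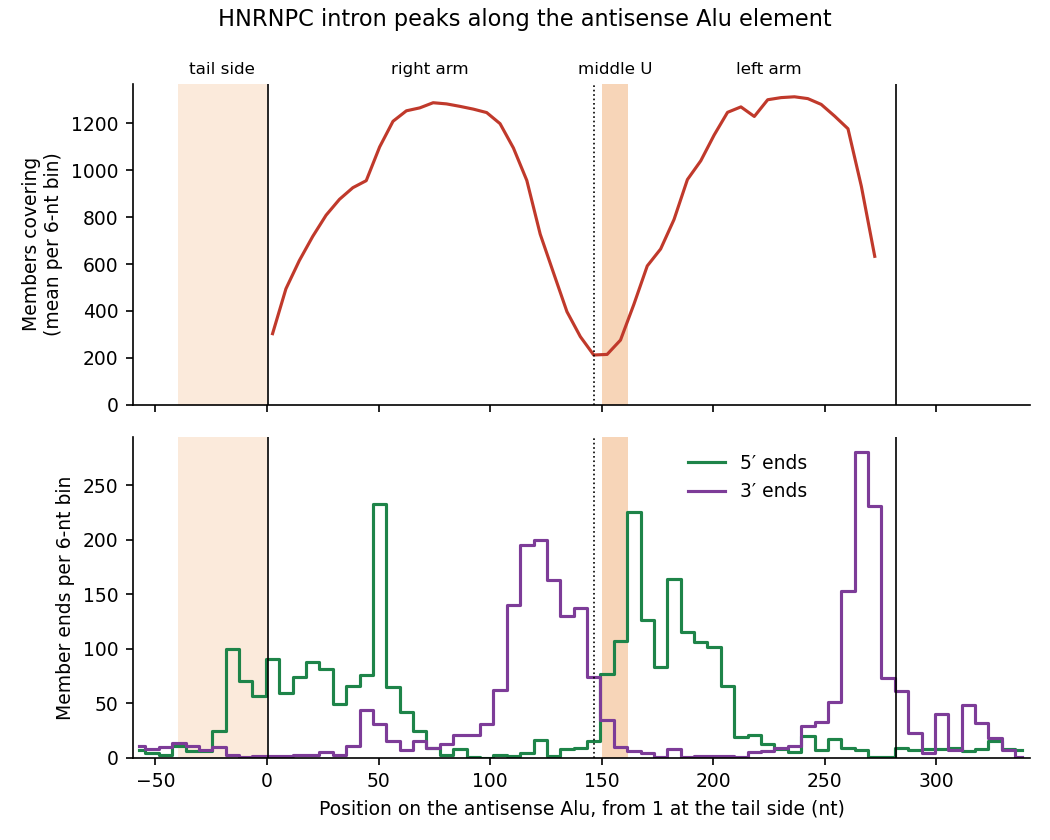
Members along the antisense Alu element, with the position in nt from 1 at the tail side on the horizontal axis. The upper panel gives the mean number of members covering each 6-nt bin of the element, and the lower panel the number of 5′ ends and 3′ ends per bin. Dark shading marks the middle U-rich stretch, light shading the tail side, the dotted line the border of the arms and solid lines the ends of the element. Coverage by bin rises to 1288.5 and 1314 members in the arms and falls to 212 between them, and the fullest bin of right-arm 5′ ends is at 48 to 53.

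The U-rich stretch was sought on the RNA strand as 5 U in a row starting from 50 nt before to 9 nt after the 5′ end of the peak. It was present in 2113 members, or 68.6% (67.0 to 70.3). The same window held such a run in 14.1% of intron peaks with no Alu (13.1 to 15.1), a difference of 54.6 percentage points (Newcombe interval 52.6 to 56.5), and in 15.1% of sense-Alu peaks (10.1 to 21.99). The U content follows in part from the rule, since an inverted Alu brings its U-rich stretches with it. When all antisense copies in the introns of the same genes were divided into windows with the same number of start positions, 38.4% of windows held the run. With runs of 7 U the shares were 34.3% of members and 2.48% of peaks with no Alu. Within the peak itself, a run of 5 U was found in 21.1% of members and 8.39% of peaks with no Alu, so the runs were mostly ahead of the peak and less often inside it.

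The position of the run was sharp on the downstream side. At each of the 50 positions before the 5′ end, a mean of 6.41% of members had a run of 5 U that started there, and from 0 to 9 nt after it the mean was 7.32%. From 20 to 70 nt into the peak the mean dropped to 0.267%. Among intron peaks with no Alu the same means were 0.554%, 0.326% and 0.105%. A run was more often close to the 5′ end in the left arm, at 84.95% of members (82.9 to 86.8), than in the right arm, at 65.2% (62.7 to 67.7), and the difference was 19.7 points (16.5 to 22.9). Once the window was widened to 100 nt before the 5′ end, a choice made after seeing the profile, both arms gave near-equal shares, 92.2% in the left arm (90.6 to 93.5) and 92.7% in the right arm (91.2 to 93.9). In that wider window 86.6% of all members (85.3 to 87.7) and 24.1% of peaks with no Alu (22.9 to 25.3) had a run. On the consensus a U-rich stretch lies at the upstream side of each arm, so these wider shares follow in part from the rule. The share over all antisense copies was not computed for this width. There were 325 members, 10.6% of all, with no run of 5 U in the wider window or in the peak.

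**Figure D2:**
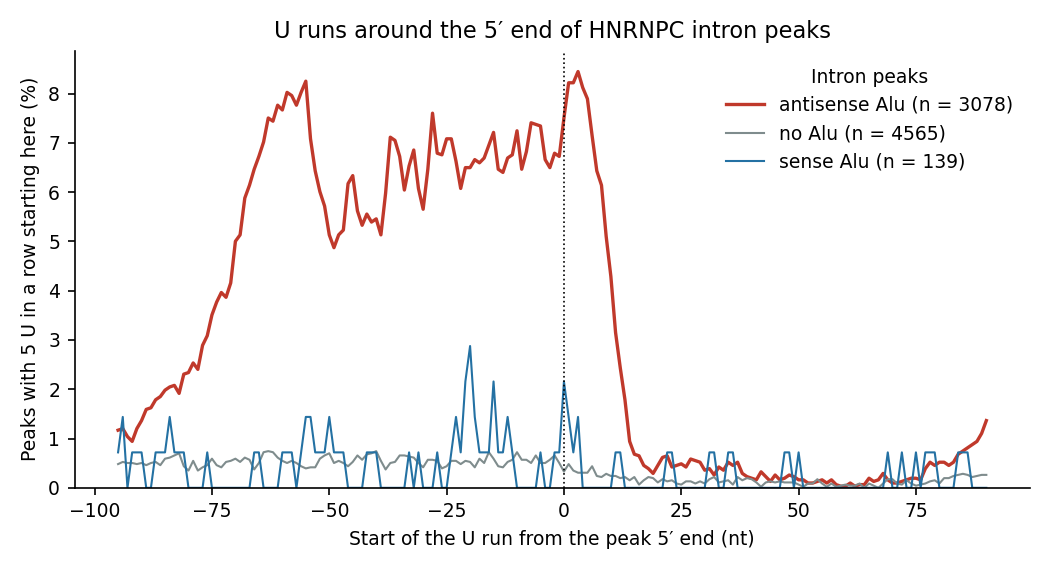
Percent of HNRNPC intron peaks that have 5 U in a row starting at each position, by distance in nt from the 5′ end of the peak (dotted line), for 3078 antisense-Alu peaks, 139 sense-Alu peaks and 4565 peaks with no Alu. The antisense-Alu line averages 6.41% over the 50 positions before the 5′ end and 0.267% from 20 to 70 nt inside the peak, and both other lines are low throughout.

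Members were somewhat lower at the median than other intron peaks. Height counts the unique tags, pooled over samples, at a peak's summit. The median member was 10 tags high (95% interval of the median 10 to 11, quartiles 8 and 16), while the median was 12 for intron peaks with no Alu (11 to 12, quartiles 8 and 18) and 12 for sense-Alu peaks (12 to 14). The authors' p-value was at most 0.001 for 69.0% of members (67.3 to 70.6) and for 73.6% of peaks with no Alu (72.3 to 74.9), a difference of -4.65 points (-6.73 to -2.58). Heights ranged from 3 to 426 tags among members. There were 529 members with at least 20 tags, 93 with at least 50 and 16 with at least 100. Height differed little with the length of the U run, with medians of 9 tags for runs of 0 to 3 U (n = 712), 11 for 4 to 5 U (n = 943), 11 for 6 to 9 U (n = 797) and 10 for 10 or more U (n = 626). The longest run in the window had a median of 5 U (quartiles 4 and 8) and reached 36 U.

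**Figure D3:**
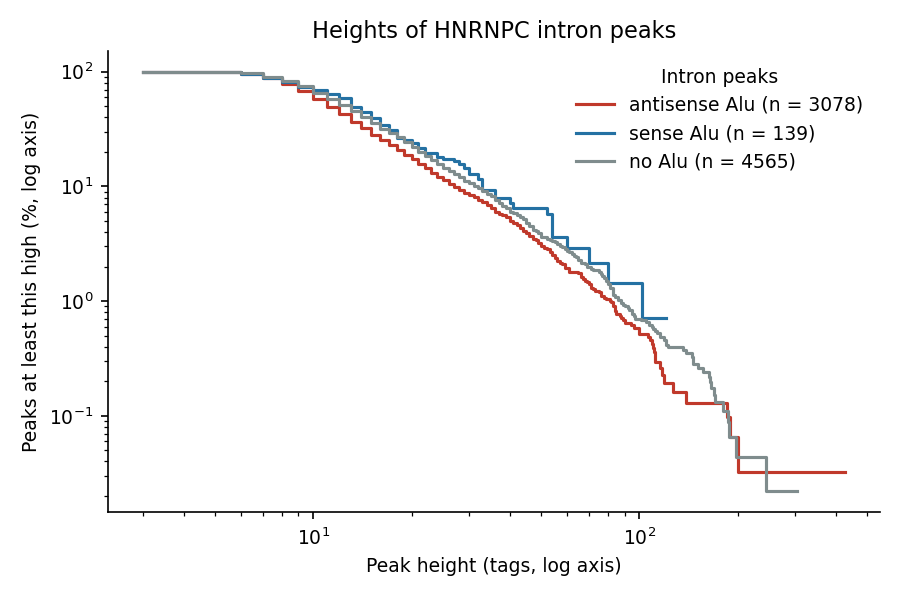
Percent of HNRNPC intron peaks at least as high as the value on the horizontal axis (tags, both axes logarithmic), for peaks in antisense Alu, in sense Alu and with no Alu. The antisense-Alu line lies below both others over most of the range and reaches the highest value, 426 tags.

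The tallest member of all was in EZH2, the histone methyltransferase of the Polycomb complex, at chr7:148879406-148879691 on the minus strand. It had 426 tags, more than double the next, spanned 286 nt and lay 3505 nt from the nearest exon. The next was in PRKCA, a protein kinase C, with 200 tags at chr17:66374726-66374884, where the peak began 20 nt before the tail edge of the element. The DPH7 member, in a gene of diphthamide synthesis, had 189 tags but began at position 285, past the far end of its Alu, so it was a member through the added sequence only. The WDR4 member, in a gene for a tRNA methyltransferase subunit, had 184 tags and covered positions 162 to 277. The SEC16A member, in a gene of the endoplasmic reticulum exit sites, had 126 tags and covered positions 177 to 273. These members of different genes thus covered nearly the same part of the left arm, starting at or after the end of the middle U-rich stretch.

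Other tall members were in MAP4, a microtubule-associated protein, with 118, in PANK2, a pantothenate kinase, with 116, in PPP1R37, a regulator of protein phosphatase, with 115, and in SKI, a repressor of transforming growth factor signalling, with 111. Of the 10 tallest members outside chromosome 8, 7 had a run of 5 U in the window and 3 did not. Of the 3 without a run, only the MAP4 member had its centre placed in an arm, the left, and it began at position 137, ahead of the middle U-rich stretch. Only 2814 members (91.4%) overlapped the Alu copy itself, and 264, like that in DPH7, lay beside it within the 100 nt that were added. Among members that overlapped the copy, 72.8% had the U run (71.1 to 74.4), a split made after seeing the data.

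A short sequence was also counted at the other end of the peaks, and it was not particular to members. The 6 letters GUGUCA started in the last 15 nt of the peak or the 5 nt after it in 605 members, or 19.7% (18.3 to 21.1). This was less than in intron peaks with no Alu, where it was 48.6% (47.1 to 50.02), by 28.9 points (26.9 to 30.9), and less than in sense-Alu peaks, where it was 44.6% (36.6 to 52.9). In all antisense copies of the same genes, 0.319% of windows with the same number of start positions held GUGUCA. Members with GUGUCA were 14 tags high at the median and the others 10 tags. Among intron peaks with no Alu these medians were 13 and 11 tags, and among sense-Alu peaks 15 and 12 tags. The member median was thus higher than that of peaks with no Alu where GUGUCA was present and lower where it was absent. No intervals were computed for these medians. The share with a U run was 65.1% with GUGUCA (61.2 to 68.8) and 69.5% without it (67.7 to 71.3). By arm, 22.8% of left-arm members and 11.9% of right-arm members ended in it, a difference of 10.9 points (8.08 to 13.8). How these letters came to stand at peak edges was not tested, so they are not given as sequence that HNRNPC binds.

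The tallest 3 members with GUGUCA for which sequence is shown, chosen after their values were seen, are shown with 30 nt around the 3′ end, and the capitals mark GUGUCA.
MAP4, chr3:48035353-48035382, minus strand: ggauugcagGUGUCAgccacugcaucuggu
PPP1R37, chr19:45117048-45117077, plus strand: gacuacaggcacGUGUCAccacacccggcu
SKI, chr1:2265260-2265289, plus strand: guggcccguGUGUCAgucaugugaauguug

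Only a small share of the available antisense Alu copies held a member. The introns of the 3642 genes with any HNRNPC intron peak had 132076 antisense and 100948 sense copies by the same consensus. A copy is said to hold a member when the peak lies in it or within 100 nt of it, which was so for 2959 of the antisense copies, or 2.24% (2.16 to 2.32). A member overlapped 2731 of them (2.07%, 1.99 to 2.15). Per 1000 copies there were 23.3 members in antisense Alu (22.5 to 24.1) and 1.38 peaks in sense Alu (1.17 to 1.63). That is 16.9 times as many per copy (14.3 to 20.2), given as a description because the rule used the strand. Without the sequence added to each peak, where 40 sense-Alu peaks were left, the ratio was 50.5 (37.0 to 70.9). Members made up 95.7% of intron peaks in an Alu of either direction (94.9 to 96.3). Of all 2976 copies that members lay in or beside, 99 held 2 or more members. The right arm alone was occupied in 1315 copies, the left arm alone in 1234 and both arms in 62, and in 365 copies no member was placed in an arm.

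The U run at the tail went with peaks in the right arm. Right-arm members were found in 8.48 per 1000 copies whose tail run was 0 to 4 U (6.96 to 10.3), in 8.86 with 5 to 7 U (7.91 to 9.91), in 12.1 with 8 to 14 U (11.0 to 13.3) and in 15.7 with 15 to 19 U (13.9 to 17.6). At 20 U or more the value was 14.9 (13.03 to 16.9), so the rise did not go on past 19 U. Along the same bins, left-arm members were found in 7.36 (5.95 to 9.09), 9.57 (8.58 to 10.7), 10.1 (9.14 to 11.2), 8.32 (7.08 to 9.78) and 11.1 (9.50 to 12.9) per 1000 copies, and the difference in trend between the arms was not tested. The longest run in the middle stretch had little relation with left-arm members. Their number per 1000 copies was 11.0 at 0 to 4 U (8.34 to 14.4), 10.2 at 5 U (9.40 to 11.1) and 10.7 at 6 to 7 U (9.75 to 11.8). It was 11.8 at 8 to 14 U (9.88 to 14.1) and 8.63 at 15 U or more (6.09 to 12.2), where only 31 copies held one.

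Copies close to the consensus held fewer members. Among copies at least 90% identical to it there were 13.1 with a member per 1000 (11.3 to 15.2), against 21.6 at 85 to 90% (20.5 to 22.8), 26.9 at 80 to 85% (24.9 to 29.0) and 24.5 under 80% (22.8 to 26.2). Short tags from near-identical copies are hard to place on the genome, and their part in this was not tested. Copies that covered more of the consensus held more members, from 12.6 per 1000 (11.1 to 14.4) for up to 150 nt to 24.6 (23.7 to 25.6) for over 250 nt. These rates are per copy and were not adjusted for length, and a longer copy offers more places for a peak.

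**Figure D4:**
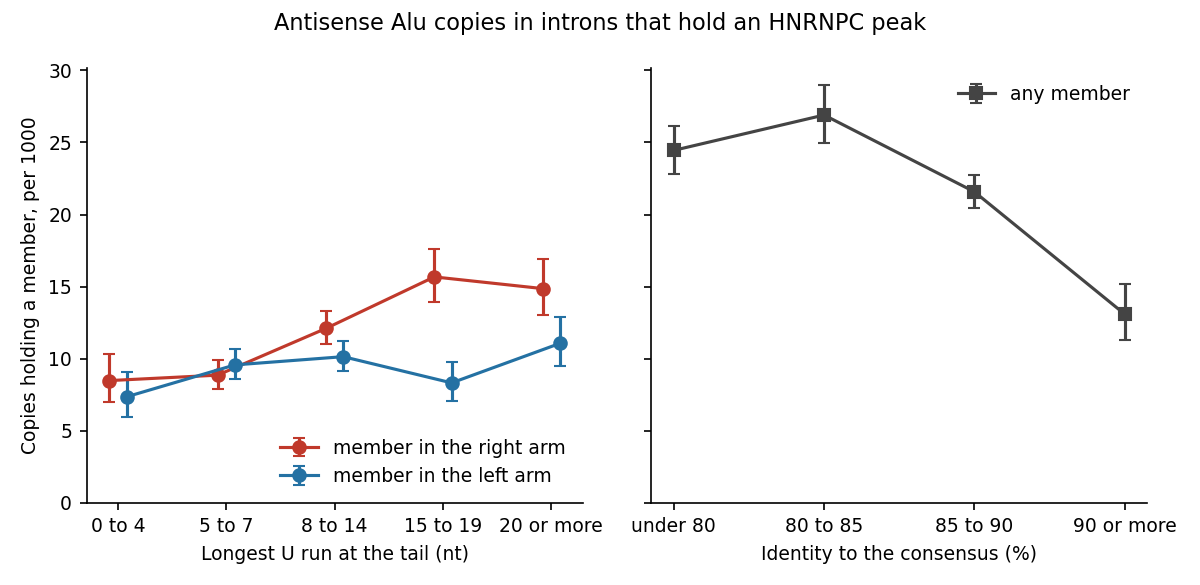
Antisense Alu copies in introns that hold a member, per 1000 copies, with 95% Wilson intervals as bars. The left panel gives right-arm and left-arm members by the longest U run at the tail of the copy (nt), and the right panel any member by the identity of the copy to the consensus (percent). Right-arm members rise from 8.48 to 15.7 per 1000 copies and then level off, and copies with 90% identity or more are lowest at 13.1.

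Members mostly lay deep in introns. The median distance to the nearest annotated exon on the same strand was 2848 nt (95% interval 2646 to 3032, quartiles 973 and 7981), beside 2982 nt for peaks with no Alu (2761 to 3155). Only 89 members (2.89%) were within 100 nt of an exon and 603 (19.6%) were over 10000 nt away. The Alu copy of 50 members overlapped an annotated exon of the same strand, which means that some transcript already carries part of that element as exon. This was 1.62% of members (1.23 to 2.14). Among copies whose own midpoint lay in an intron, 33 of 2959 with a member (1.12%, 0.795 to 1.56) and 1.09% of those without one (1.04 to 1.15) overlapped an exon, so the difference was 0.0224 points (-0.303 to 0.473). The other 17 member copies had their midpoint in an exon or outside these introns. When only exons of protein-coding transcripts were counted, 20 members (0.650%) remained. The tallest members of this kind, chosen after their values were seen, were in NSD2, a histone methyltransferase, with 64 tags, and in NOP56, a ribonucleoprotein of ribosomal RNA modification, with 29 tags.

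The PABPC4 list had the opposite relation with Alu. Of PABPC4 intron peaks in an Alu, 1211 matched an antisense and 22291 only a sense Alu, so 5.15% were antisense (4.88 to 5.44). These counts include peaks followed by an A-rich stretch in the genome, such as the tail of a sense Alu. The part of such stretches in this split was not tested. A PABPC4 peak lay on the same strand within 500 nt of 164 members, or 5.33% (4.59 to 6.18). The share was 6.77% for peaks with no Alu (6.08 to 7.53), a difference of -1.44 points (-2.51 to -0.344), and 31.7% for sense-Alu peaks (24.5 to 39.8). Only 9 members overlapped a PABPC4 peak. On the opposite strand, where the same Alu is in the sense direction but in no transcript of the host gene, 4 members had a PABPC4 peak within 500 nt. When PABPC4 peaks followed by an A-rich stretch in the genome were left out, 1.95% of members (1.52 to 2.50) had one within 500 nt.

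Members were spread thinly over many genes. Of the 1823 genes, 1247 (68.4%) had 1 member, 76 had 5 or more and 15 had 10 or more. The 10 genes with the most held 160 members, 5.20% of all. The number of members and the number of antisense copies in a gene had a Spearman correlation of 0.27 across the 1822 genes with both a member and a copy. This is a description across genes that share a list and are not independent, and genes without a member were left out. The median gene with a member had 36 antisense copies. A single member was found in 76.5% of genes with under 50 copies (74.0 to 78.8), in 58.0% with 50 to 99 copies (53.5 to 62.3) and in 43.1% with 100 or more (35.97 to 50.5).

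EXT1, an enzyme of heparan sulfate synthesis, had the most members, 34 among 85 antisense copies, with heights up to 111 tags. PRKCA had 28 members among 137 copies in a gene at chr17:66302613-66810743, and 23 of the 28 had a U run. SMURF2, a ubiquitin ligase, had 15 members among 71 copies. RUNX1, a transcription factor, had 14 members among 147 copies and none taller than 18 tags. SLC4A7, a bicarbonate transporter, had 13 members among 60 copies. FTX, a long non-coding RNA gene, had 13 members among 77 copies, of which 4 had a U run in the window. ATXN2, an RNA-binding protein, had 12 members among 120 copies. HELLS, a chromatin remodeller, had 11 among 50, PARD3, a cell polarity protein, had 10 among 231, and LPAR1, a receptor for lysophosphatidic acid, had 10 among 44. Per 100 antisense copies these genes ranged from 4.33 members in PARD3 to 40 in EXT1. In these 10 genes both arms were used, with right-arm and left-arm members in each. Other HNRNPC intron peaks, not in antisense Alu, numbered 47 in RUNX1, 42 in EXT1, 30 in PRKCA and 10 in PARD3, between 1 and 6 in FTX, LPAR1, SMURF2 and HELLS, and 0 in SLC4A7 and ATXN2.

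**Figure D5:**
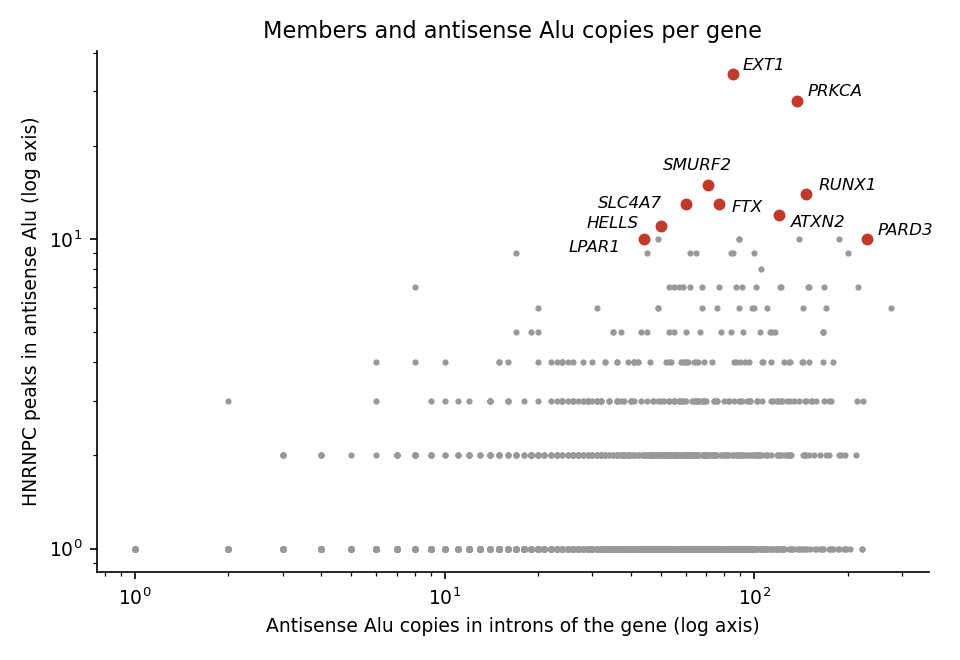
Number of members against number of antisense Alu copies in the introns of each gene, both axes logarithmic, for 1822 genes with a member and at least 1 copy. Each point is a gene and red points are the 10 genes with the most members. EXT1 has 34 members among 85 copies, and the share of genes with a single member falls from 76.5% under 50 copies to 43.1% at 100 copies or more.

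Among genes that the study worked with, HNRNPC itself had 9 members among 45 antisense copies. Their heights were 16, 14, 22, 15, 17, 21, 21, 13 and 18 tags in genome order, a narrow range above the median member. The p-value that the authors gave to a height differed between genes, and so did the lowest height called, which limits such comparisons. Of these, 6 lay in the right arm and 3 in the left arm, and 0 had GUGUCA. PDLIM5, an actin-associated protein, had 4 members among 60 copies, with heights of 9, 8, 13 and 10 tags. TXNRD1, a thioredoxin reductase, had 3 members of 11, 10 and 10 tags among 76 copies. KAT14, PGK1 and PABPC4 had 0 members among 24, 77 and 3 antisense copies. With 16 members in 285 copies, these 6 genes had 56.1 members per 1000 copies (34.8 to 89.2), beside 23.3 for all genes with an intron peak. HNRNPC supplied most of them, and the other 5 genes had 7 members in 240 copies, or 29.2 per 1000 (14.2 to 58.97).

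The list of 20 RNA-binding and splicing factors known to act at U-rich or Alu RNA had 15 members in 10 of its genes among 259 antisense copies, or 57.9 per 1000 (35.4 to 93.3), beside 23.3 for all genes with an HNRNPC intron peak. All those background genes hold an HNRNPC peak by construction and the listed genes need not. STAU1, a double-stranded RNA-binding protein, had 4 members of 11, 11, 15 and 39 tags. U2AF2, which competes with HNRNPC for U-rich tracts, had 1 member of 24 tags with GUGUCA and no run over 3 U. TIAL1, an RNA-binding protein of U-rich sequence, had 2 members of 9 and 11 tags. ADARB1, MATR3, TARDBP, TIA1 and UPF1 had 1 member each, and 10 genes of the list had 0. The TIA1 member, of 6 tags, lay within the span of that gene but was assigned to another gene in the counts of members per gene. The totals of this list include it.

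The genes with well-known Alu exons did not stand out. Only 2 of 8 had a member, GUSB, a lysosomal enzyme, with 13 tags, and ADARB1, an RNA-editing enzyme that is also on the list above, with 17 tags. Their rate was 11.4 members per 1000 copies (3.14 to 40.7). Of 12 DNA repair genes, ATM, BRIP1 and MSH6 had 2 members each, all between 6 and 12 tags, and the other 9 genes had 0 members. Their rate was 12.2 per 1000 copies (5.59 to 26.3). Both intervals include the 23.3 members per 1000 copies of all genes with an intron peak, so no difference was detectable at these numbers of copies.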

How the data were processed

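Per the labels and the study's methods, HNRNPC reads were collapsed by molecular identifiers, which UMI-tools then extracted. They were trimmed with cutadapt and aligned to hg38 with BWA 0.7.17. The CLIP Tool Kit removed PCR duplicates and called peaks by valley seeking. The file name gives HITS-CLIP and the labels irCLIP, and which form sets the 5′ end of a peak was not settled here. Whether a published HNRNPC set that the study used enters the list is not given in the sources used here. The authors deposited a signal for each peak, its height in unscaled pooled tags, used here only to describe and rank.

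The 10388 HNRNPC entries gave 9107 positions. The Alu consensus (282 nt) was built with BLAST 2.17.0 and MAFFT 7.526 from 400 copies on chromosome 19, found with the first 120 nt of BCYRN1 and refined on chromosomes 1, 2 and 19. Copies in introns were pieces joined over gaps of up to 40 nt. Class calls and placement were tested on simulated windows that held pieces of this same consensus with substitutions only. Gaps and tails were not simulated, so the test does not cover copies that have them. Shares have 95% Wilson intervals, and no test was made. Genes named were the 10 with most members, the 10 tallest members not on chromosome 8, from which no sequence is shown, genes of the study and 3 lists. The members and lists were chosen with earlier results of these data known. Some genes and sequences that these rules select are not reported here.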

Additional observations from a re-analysis of the deposited data

How the results depend on the processing

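No paired analysis was possible because the authors merged both samples of a protein before peak calling, and for that reason no fit without 1 replicate could be had either. Searching at an E-value of 1e-10, searching the arms separately and keeping protein-coding introns moved none of the 11 values by more than its own interval (counts by no more than 1.5 times). In the other settings the values below moved further, and the cause was not tested. With peaks at p at most 0.001, 47.98% of placed members were in the right arm, 24.4% had GUGUCA and the median height was 13 tags. With peaks at or above the median height of the list, there were 1526 members in 915 genes, 13.1 times as many peaks per antisense as per sense copy, 94.5% antisense, 72.3% with a U run, 44.8% in the right arm, 26.6% with GUGUCA, a median height of 16 tags by construction and 6.49% with a PABPC4 peak within 500 nt. With the peak alone, only 40 sense-Alu peaks were left, so the ratio per copy was 50.5 and the antisense share 98.5%, with 73.8% with a U run and 17.3% with GUGUCA. Without GUGUCA members, which gives 0% by construction, the ratio was 24.5, the antisense share 97.0% and the right-arm share 54.8%. With 1 member per gene, the right-arm share was 46.3%, the GUGUCA share 26.2% and the median exon distance 2236 nt. The right-arm share thus lay on both sides of 50%. Runs of 4 U gave 76.8%, runs of 7 U 34.3%, the peak itself 21.1%, and, added after seeing the data, a window from 100 nt before 86.6% and members overlapping their copy 72.8%. GUGUCAG gave 14.9%. A PABPC4 peak lay within 100 nt of 0.780%, overlapped 0.292% and, without A-rich sites, lay within 500 nt of 1.95%. Exons of protein-coding transcripts alone gave a median distance of 4018 nt and 0.650% with an exon in the Alu.

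The unknown depth, the median of 10 tags per member and the single pooled list limit every value. A copy without a peak is only a copy in which none was called.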
